A study of Mus musculus with 2 samples.

Results

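Described here are 9 genes of the complement system: the C1q chains C1qa, C1qb and C1qc, the components C3 and C4b, factor B (Cfb), properdin (Cfp), and the anaphylatoxin receptors C3ar1 and C5ar1. They were the rows with these symbols among the 32285 genes of each count matrix, and all 9 were found. The CD45+ (leukocyte) fraction was sorted from subcutaneous tumors of MC38, a colon carcinoma line of mice, in wild-type (WT) hosts. One library came from tumors that were not irradiated (Control) and 1 from tumors collected 4 days after a single dose of 20 Gy (IR), and each pooled several tumors. The design thus held 1 library per group and no replicate, so no test was run. Every interval below is an exact 95% interval of the UMI or cell counts, which covers counting error only, not the variation between mice or between libraries. A UMI marks 1 captured RNA molecule, and levels are CPM, the UMIs of a gene per 1000000 UMIs of all genes, summed over the cells of a gate. A level is thus relative to the other RNA of the same cells.

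Complement is a cascade of plasma and cell-surface proteins that tags targets for uptake, recruits leukocytes and can lyse cells. C1q starts the classical pathway and is unusual among the components in being made mainly by macrophages and other myeloid cells rather than by the liver. The pathways meet at C3, the alternative pathway amplifies C3 cleavage through factor B and is stabilised by properdin, and the released fragments C3a and C5a act on myeloid cells through C3ar1 and C5ar1.

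Cells were placed in gates by marker genes, none of them a complement gene. After filtering, 4652 Control cells with 37065940 UMIs and 3329 IR cells with 33615387 UMIs remained, at a median of 6583 and 7594 UMIs per cell, and 6 cell barcodes occurred in both libraries. The monocyte gate, where Ly6c2, Plac8, Ms4a4c, Ccr2, Chil3 and Hp outnumbered the macrophage markers, held 701 Control cells (15.1%) and 990 IR cells (29.7%). The macrophage gate, led by markers such as Adgre1, Mrc1, Trem2 and Ms4a7, held 1409 cells (30.3%) and 329 cells (9.88%). The boundary was not sharp, since in 492 of 2276 Control cells and 200 of 1398 IR cells the marker sums differed by at most 1 UMI. The sample records name CD45+CD11b+Ly6Chi cells, but the T or NK gate held 16.1% and 19.6% of cells, with Itgam (CD11b) at 35.9 and 42.3 CPM there against 350 and 446 CPM in the monocyte gate. Markers of other cells were low in the main gates but not equal between libraries. The neutrophil list summed to 78.9 CPM in Control and 309 CPM in IR monocytes and to 50 and 341 CPM in macrophages, against 40171 and 51505 CPM in the neutrophil gate. The T or NK list summed to 219 and 385 CPM in monocytes and to 214 and 285 CPM in macrophages. The part of such RNA in the ratios below was not tested.

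RNA released into the suspension enters every droplet, so empty droplets were measured in the same way. Those droplets held the C1q chains at 4124 CPM in Control and 1663 CPM in IR. Judged from lymphocyte genes, free RNA made up 3.65% of the UMIs of Control monocytes and 2.89% of those of IR monocytes, and 3.8% and 2.08% in macrophages. By that gauge it would account for 5.67% and 3.64% of the C1q level in monocytes and for 2.01% and 0.713% in macrophages. In the T or NK gate, which should lack these genes, the level expected from free RNA (gauged with Apoe) was 90.1% of the measured C1q level in Control and 117% in IR, so C1q in that gate is read as background. The same holds for the neutrophil gate, at 112% and 103%, and for mast cells or basophils, where it exceeded the measured level. The Apoe gauge put free RNA at 59.5% of Control and 47.0% of IR neutrophil UMIs, against 9.76% and 9.23% in the T or NK gate. It cannot tell free Apoe RNA from that of a cell caught in the same droplet, so the neutrophil shares are uncertain.

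C1q was lower in the IR library in both main gates. The chains are encoded side by side on chromosome 4 within 18675 bases (GENCODE vM21, GRCm38, minus strand): C1qb (ENSMUSG00000036905) at chr4:136880129-136886187, C1qc (ENSMUSG00000036896) at chr4:136889804-136893065 and C1qa (ENSMUSG00000036887) at chr4:136895917-136898803. Since the chains moved together, the 250 bases before the start of C1qb and C1qc are shown (RefSeq, GRCm38.p6, minus strand, 5′ to 3′, chr4:136886201-136886450 and chr4:136892915-136893164). The capitals mark GAGGAA or its reverse complement, the core of sites of the myeloid factor PU.1.
C1qb: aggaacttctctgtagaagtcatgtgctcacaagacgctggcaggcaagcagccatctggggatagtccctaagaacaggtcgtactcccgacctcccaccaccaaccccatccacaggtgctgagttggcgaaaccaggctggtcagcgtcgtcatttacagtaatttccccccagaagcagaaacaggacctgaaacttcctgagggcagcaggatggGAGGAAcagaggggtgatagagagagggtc
C1qc: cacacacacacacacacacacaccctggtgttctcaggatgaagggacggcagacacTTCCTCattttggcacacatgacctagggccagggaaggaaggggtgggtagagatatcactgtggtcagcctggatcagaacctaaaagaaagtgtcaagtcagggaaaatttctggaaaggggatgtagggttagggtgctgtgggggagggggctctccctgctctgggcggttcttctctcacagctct
On both strands of 250-base windows, 5 motifs were searched: GAGGAA, an interferon-stimulated response element (a pair of GAAA with 2 bases between), the gamma-activated site TTCNNNGAA, the C/EBP-like TTGCNNAA and an NF-kB-like motif (GGGA and TTCC with 2 bases between). GAGGAA lay 30 bases before the RefSeq start of C1qb and 193 bases before that of C1qc, and 23.1% of all 27025 promoters held it. GENCODE starts C1qc at chr4:136893065, inside the printed window. Part of that window thus lies within the gene as GENCODE places it, and the site is nearer to that start. None of the other 4 motifs was found in the C1qb and C1qc windows, and none of the 5 in those of C3ar1, C5ar1 and Cfp. The other 4 occurred in 3.04% (interferon-stimulated), 7.18% (gamma-activated), 9.55% (C/EBP-like) and 1.17% (NF-kB-like) of all promoters. The C5ar1 window (chr7:16259339-16259588) lay mostly within the gene as GENCODE places it, so it says little about the bases before that start.

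In the macrophage gate, the C1q chains together stood at 7807 CPM in Control (7760 to 7854) and 4862 CPM in IR (4793 to 4932), 1.61-fold lower, a log2 ratio of -0.68 (-0.71 to -0.66). In the monocyte gate they stood at 2655 CPM in Control (2613 to 2697) and 1320 CPM in IR (1298 to 1343), 2.01-fold lower, a log2 ratio of -1.01 (-1.04 to -0.97). Both gates were therefore lower in IR by more than counting error, and macrophages stayed above monocytes in each library. C1qa was at 2814 and 1703 CPM in Control and IR macrophages and at 875 and 411 CPM in monocytes. C1qb was at 3015 and 1960 CPM in macrophages and at 1142 and 609 CPM in monocytes. C1qc was at 1978 and 1199 CPM in macrophages and at 638 and 300 CPM in monocytes. The size of the monocyte ratio depended on the gate and on the random draw of UMIs used for gating. With Apoe and Lgmn added to the macrophage markers it was -0.46 (-0.51 to -0.41).

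Against a 2-fold limit, 2 of the 9 genes, C1qa and C1qc, were lower in IR monocytes, where 3.73% of 10836 genes with at least 20 UMIs were. No member was 2-fold higher in the monocyte gate, where 3.46% of genes were. In the macrophage gate no member passed 2-fold in either direction, against 3.58% of 11186 genes higher and 6.18% lower. The counts depended on the gate, on the random draw of UMIs used for gating and on the limit. With that draw alone repeated, 0 members were 2-fold lower in monocytes. Over 17 alternatives, 0 to 3 members were 2-fold lower in monocytes and 0 to 1 in macrophages, where 0 to 1 was 2-fold higher. At 1.5-fold, 3 members were higher and 4 lower in monocytes, beside 8.67% and 10.1% of all genes, and 1 was higher and 4 lower in macrophages, beside 8.25% and 14.3%. The median log2 ratio was -0.19 for the 9 genes and -0.05 for all genes in monocytes, and -0.40 and -0.08 in macrophages.

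**Figure D1:**
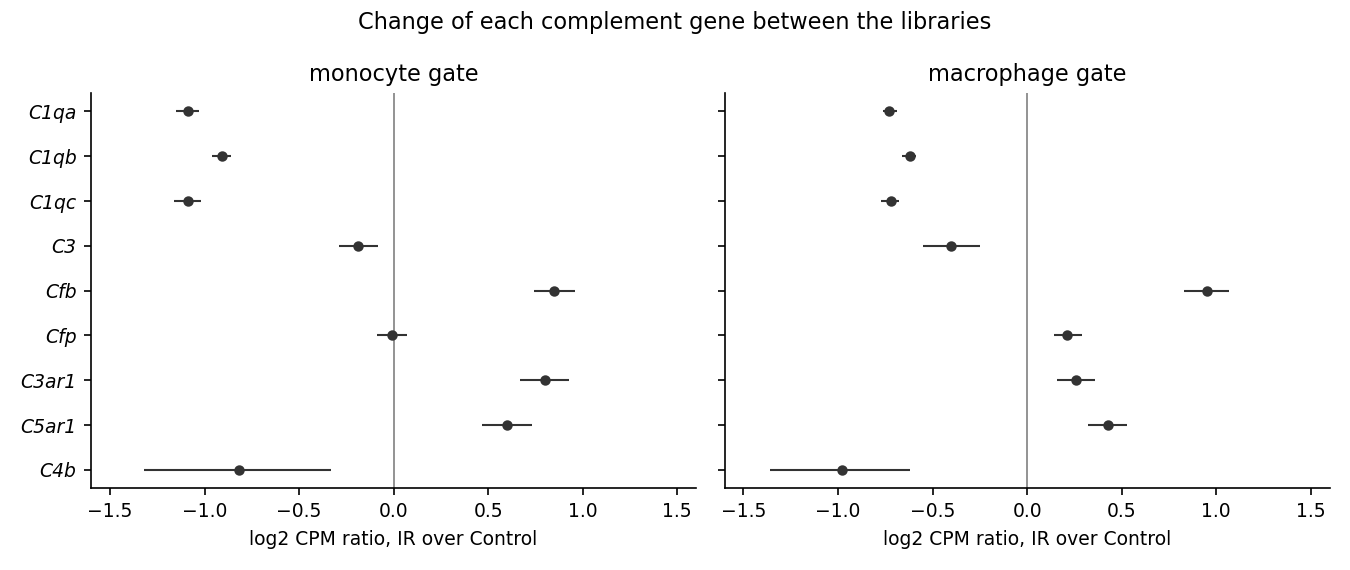
Log2 ratio of CPM, IR over Control (x axis), for the 9 complement genes in the monocyte and macrophage gates, with exact 95% intervals of the UMI counts as bars and 1 library per group. The C1q chains, C3 and C4b lie left of 0 in both gates and Cfb, C3ar1 and C5ar1 right of it, from 0.26 to 0.95, while Cfp stands at -0.01 in monocytes and 0.21 in macrophages.

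The share of cells with a C1q UMI followed the levels. With each cell thinned to 2000 UMIs, 91.3% of Control macrophages (1286 of 1409) and 71.1% of IR macrophages (234 of 329) held at least 1 UMI, with a median of 14 and 5 UMIs. Among monocytes the shares were 53.6% and 32.0%, with medians of 1 and 0. In the T or NK gate, the background gauge, they were 23.2% and 8.79%. Thinning left out 81 Control and 38 IR T or NK cells. It left out no monocyte or macrophage, since 176 Control and 78 IR cells under 2000 UMIs had already been kept out of those gates. Before thinning, the macrophage shares were 94.5% and 78.4%, the monocyte shares 67.6% and 43.1% and the T or NK shares 39.9% and 15.0%, at median depths of 8674 and 10061, 6813 and 8632, and 5079 and 5897 UMIs. The macrophage gate held 68.7% of the C1q UMIs of all Control cells and 44.4% in IR, while the monocyte gate held 10.1% and 32.3%.

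The drop over both gates together was larger than in either gate, and the gates held unequal shares of the UMIs in the 2 libraries. Pooled, monocytes and macrophages had 6257 CPM of C1q in Control and 2282 CPM in IR, a log2 ratio of -1.45, as the macrophage share of their UMIs went from 69.9% to 27.2%. With the IR gate levels weighted by the Control shares, IR came to 3796 CPM and the ratio to -0.72. For Cfb the corresponding ratios were 1.0 and 0.92, and for C3 -0.03 and -0.32.

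To compare cells at like marker positions, both gates and the tied cells were divided into 5 bins by the macrophage share of their monocyte and macrophage marker UMIs, a comparison added after the data were seen. C1q was higher toward the macrophage end in both libraries and lower in IR in each bin. It stood at 1647 CPM in Control and 910 CPM in IR where macrophage markers made up at most 20%, at 5208 and 2998 CPM in the middle bin, and at 8541 and 5424 CPM above 80%. The log2 ratios of the 5 bins ran from -0.96 to -0.48. Cfb was higher in IR in each bin, with log2 ratios from 0.68 to 1.05, and so were C3ar1, from 0.24 to 0.95, and C5ar1, from 0.17 to 1.02. C3 was lower in each bin, from -0.71 to -0.20, but in the fourth bin its interval included 0 (-0.47 to 0.07). Cfp was alike in the first 3 bins, at 0.02, 0.04 and 0.11 with intervals that included 0, and higher in IR in the last pair, at 0.37 and 0.21.

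**Figure D2:**
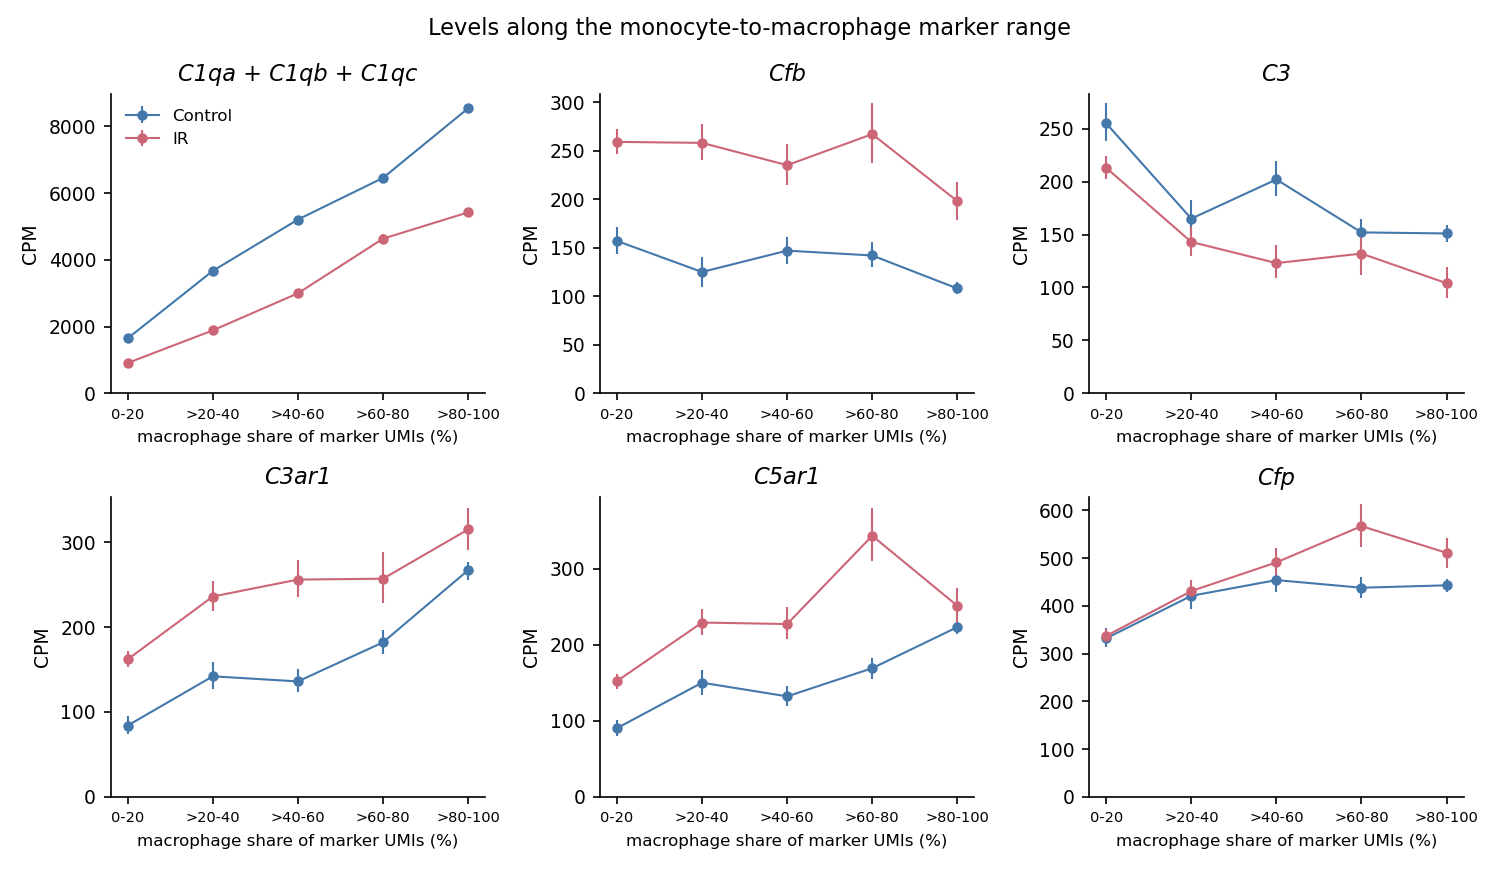
CPM (y axis) of the summed C1q chains, Cfb, C3, C3ar1, C5ar1 and Cfp in 5 bins of cells by the macrophage share of their marker UMIs in percent (x axis), Control in blue and IR in red, with exact 95% Poisson intervals as bars. C1q climbs from 1647 to 8541 CPM in Control and from 910 to 5424 CPM in IR, and the IR points of Cfb, at 198 CPM or more, lie above each Control point, at 157 CPM or less.

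The C1q chains did not keep one proportion. C1qa over C1qb was 0.93 in Control and 0.87 in IR macrophages, and 0.77 and 0.67 in monocytes. C1qa made up 36.0% of the C1q UMIs of Control macrophages (35.8% to 36.3%) and 33.0% in Control monocytes (32.2% to 33.7%), so the gates differed by more than counting error. The empty droplets of each library gave 0.94 and 0.77, and the T or NK cells, whose C1q is read as background, gave 0.97 and 0.73.

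Within the macrophage gate, C1q differed by subset. Cells with at least 2 UMIs of Lyve1, Folr2, Cd163, Cbr2 and Timd4, markers of tissue-resident macrophages, numbered 141 in Control and only 11 in IR. The 141 Control cells had the C1q chains at 13031 CPM (12817 to 13247), against 7351 CPM in the other 1268 macrophages, and C1qa over C1qb was 1.10 in them. The 11 IR cells, from 1471 C1q UMIs, stood at 15228 CPM, a value that rests on very few cells. Without the Lyve1/Folr2 cells the macrophage log2 ratio of C1q stayed at -0.68. Macrophages with Mmp12 or Mmp13, matrix metalloproteinases, had 5837 CPM in Control (353 cells) and 4218 CPM in IR (115 cells). Those with Clec5a, Fcgr4 or Gpr84 had 8990 CPM (162 cells) and 5667 CPM (85 cells). Those with Dcstamp, Ccl17 or Tnip3 had 5424 CPM (95 cells) and 2020 CPM, the latter from 15 cells. These 3 subsets, which may share cells, were each lower in IR. Cycling macrophages, with 176 Control and 10 IR cells, had 8093 and 5458 CPM, close to the 7748 and 4829 CPM of those not cycling.

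C4b (ENSMUSG00000073418, chr17:34728380-34743882, minus strand) encodes C4, which joins C2 in the C3 convertase of the classical pathway. Its paralog C4a is nearly identical, and reads that match both are not counted by Cell Ranger, so its level is uncertain. C4a itself had 3 UMIs in Control macrophages and 0 in the IR macrophage gate and in both monocyte gates. C4b stood at 36.4 CPM in Control macrophages (493 UMIs) and 18.4 CPM in IR (71 UMIs), a log2 ratio of -0.98 (-1.36 to -0.62). In monocytes it stood at 12.2 and 6.88 CPM, from 71 UMIs each, a log2 ratio of -0.82 (-1.32 to -0.33). That ratio was -0.42 (-0.95 to 0.11) with at most 10% mitochondrial UMIs, -0.47 (-1.05 to 0.11) without cells near the gate boundary and -0.21 (-0.88 to 0.48) at the monocyte end of the marker range, so the monocyte difference was not detectable under these settings. The macrophage value rested on a small subset, since the 141 Lyve1/Folr2 cells held 330 of the 493 Control UMIs (66.9%, interval 62.6% to 71.1%) with 8.03% of the UMIs of the gate. C4b was at 304 CPM in those cells and at 13.1 CPM in the other Control macrophages, a 23.2-fold difference within 1 library. Without the Lyve1/Folr2 cells, macrophages stood at 13.1 CPM in Control and 15.5 CPM in IR, a log2 ratio of 0.24 whose interval included 0 (-0.22 to 0.68). The estimate thus changed sign when that subset was left out, and no macrophage difference was detectable without it. Among the 11 IR cells of the subset C4b had 13 UMIs, or 135 CPM (71.7 to 230). At 2000 UMIs per cell, 36.2% of the Control Lyve1/Folr2 cells and 2.52% of the other Control macrophages held a C4b UMI (51.8% and 6.07% before thinning), against 1.05% of T or NK cells. Outside the myeloid gates, C4b was at 106 CPM in the Control fibroblast or tumor gate and at 54.0 CPM in that of IR.

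**Figure D3:**
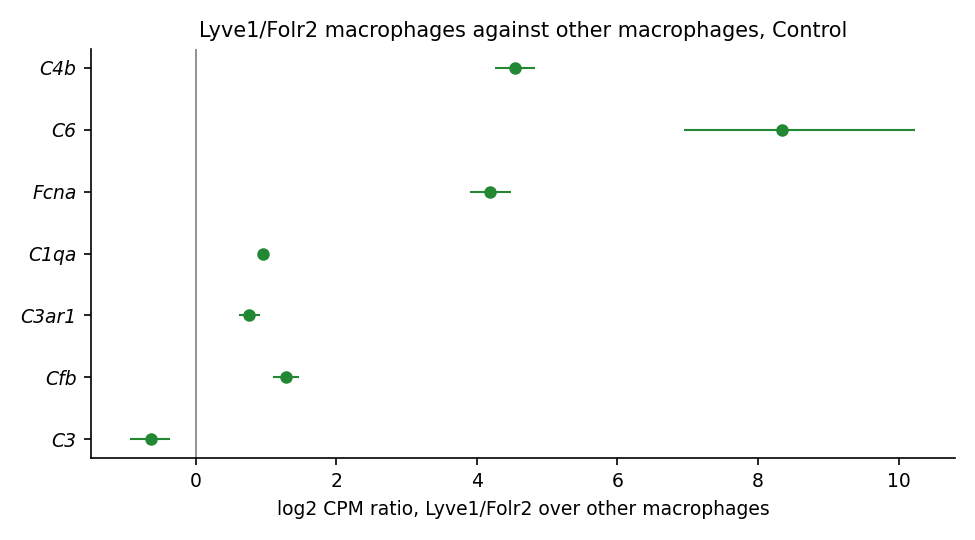
Log2 ratio of CPM in the 141 Lyve1/Folr2 cells over the other 1268 macrophages of the Control library (x axis) for 7 complement genes, with exact 95% intervals of the UMI counts as bars. C6, C4b and Fcna lie farthest to the right, at 8.34, 4.54 and 4.19, and C3 lies left of 0, at -0.64.

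C3 (ENSMUSG00000024164, chr17:57203970-57228136, minus strand) is the central component, cleaved in all pathways. It is the only gene of the 6 with a promoter in the table that held the C/EBP-like motif, at 45 to 38 bases before the start, in capitals below (RefSeq, GRCm38.p6, minus strand, chr17:57228137-57228386).
C3: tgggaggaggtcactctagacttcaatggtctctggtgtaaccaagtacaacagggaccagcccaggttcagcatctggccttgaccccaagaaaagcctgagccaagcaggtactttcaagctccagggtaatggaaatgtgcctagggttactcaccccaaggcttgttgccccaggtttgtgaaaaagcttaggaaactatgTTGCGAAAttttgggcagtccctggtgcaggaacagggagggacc
Monocytes had more C3 than macrophages in both libraries, the reverse of C1q. It stood at 213 CPM in Control monocytes (201 to 225) and 187 CPM in IR (179 to 196), a log2 ratio of -0.19 (-0.29 to -0.08), which was -0.12 (-0.24 to 0.00) with the lineage minimum raised by a factor of 2. In macrophages it stood at 153 CPM (147 to 160) and 116 CPM (106 to 127), a log2 ratio of -0.40 (-0.55 to -0.25). The share of cells with a C3 UMI at 2000 UMIs differed little, at 33.4% and 30.9% of monocytes and 18.8% and 20.4% of macrophages (59.5% and 63.2%, and 47.7% and 50.8%, before thinning), against 1.20% and 0.651% in the T or NK gate. Other myeloid gates did not share one direction. Conventional dendritic cells (cDC) had 112 CPM in Control (93 UMIs) and 22.8 CPM in IR (13 UMIs), a log2 ratio of -2.29. By the Apoe gauge, free RNA would give 15.4% and 32.6% of those cDC levels. Migratory dendritic cells had 13.6 CPM (12 UMIs) and 29.0 CPM (43 UMIs), and neutrophils 114 CPM (15 UMIs) and 231 CPM (191 UMIs). The neutrophil gate held only 31 Control cells and 189 IR cells, at a median of 1891 and 2727 UMIs. The level expected there from free RNA was 48.5 CPM in Control, 42.7% of that measured, and 36.2 CPM in IR, 15.7% of that measured. At 2000 UMIs, 1 of the 9 Control neutrophils and 48 of the 141 IR neutrophils that were deep enough held a C3 UMI. The monocyte gate held 26.3% of the C3 UMIs of the Control library and 60% of those of IR, while the macrophage gate held 43.9% and 13.9%.

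**Figure D4:**
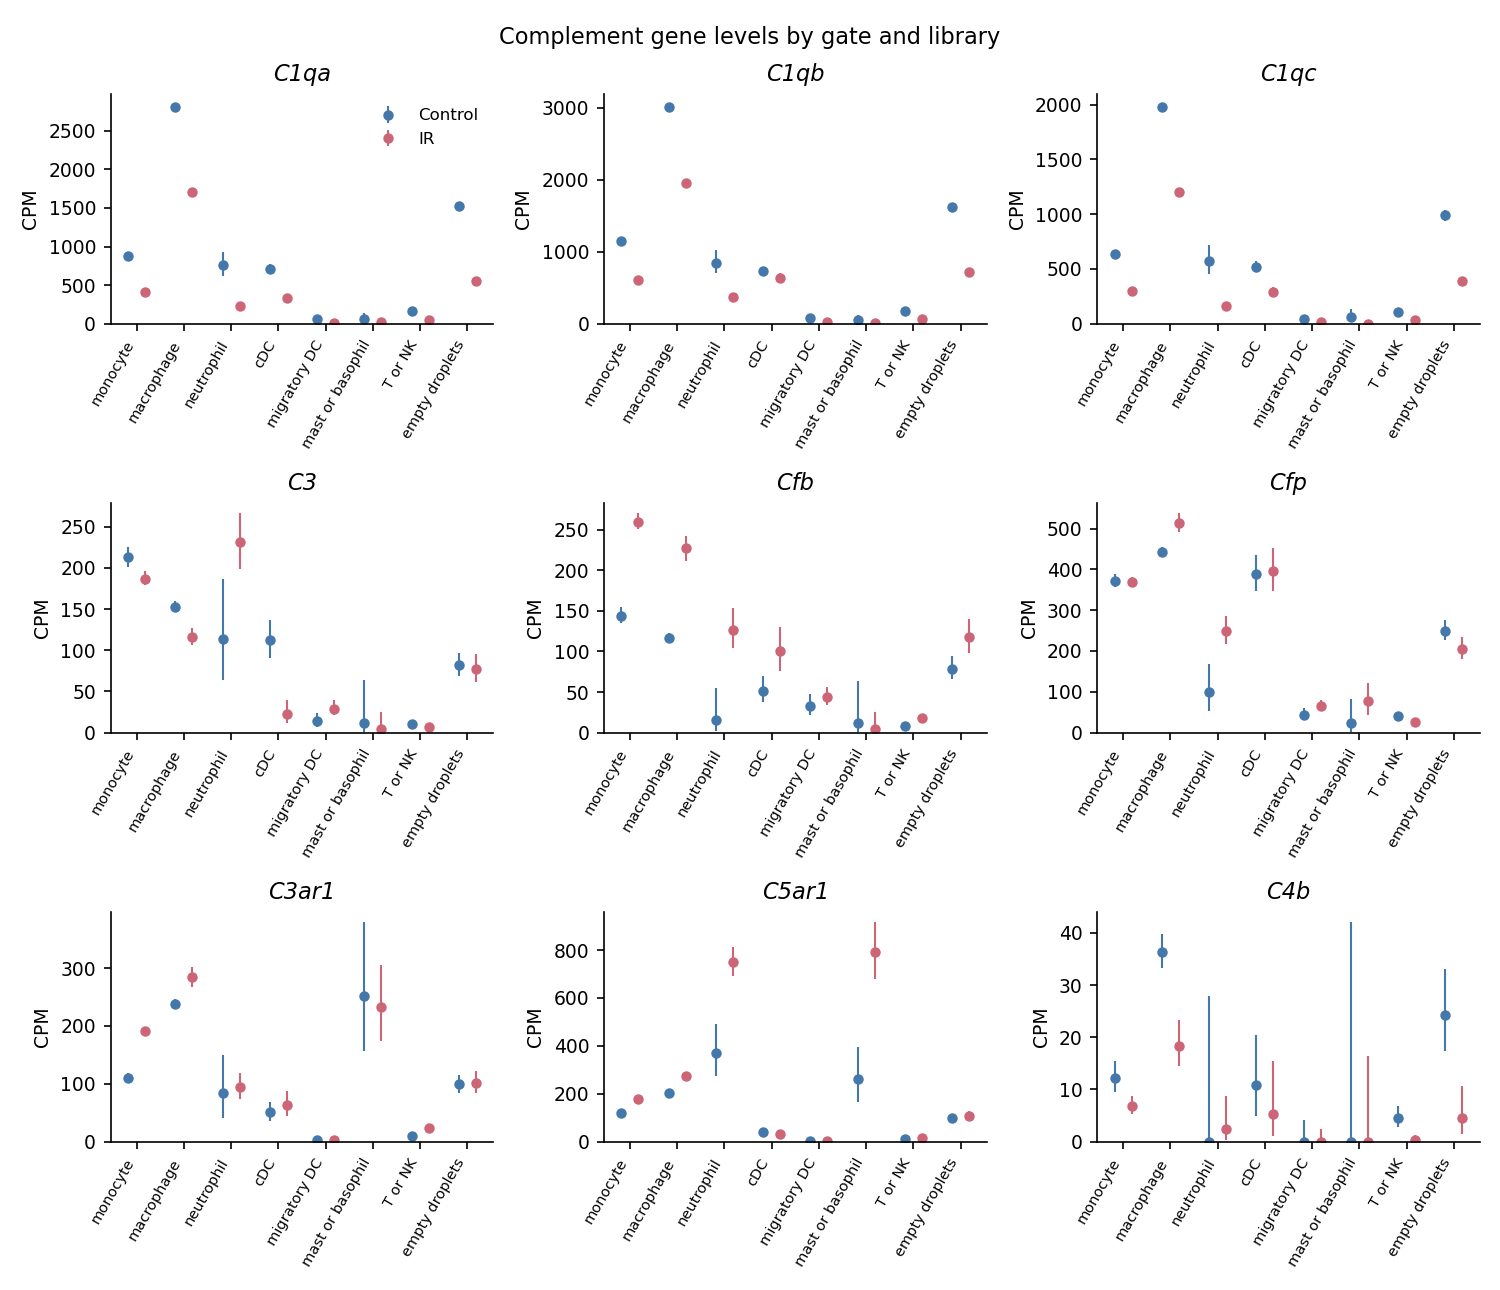
CPM (y axis) of the 9 complement genes by marker gate and in empty droplets (x axis), Control in blue and IR in red, with exact 95% Poisson intervals as bars and 1 library per group. The C1q chains are highest in the macrophage gate, C3 in Control is highest in the monocyte gate among those shown, and C5ar1 is highest in IR neutrophils and IR mast cells or basophils, at 751 and 790 CPM.

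Cfb was higher in IR in both main gates. Its log2 ratio was the highest of the 9 genes in macrophages, there also under each of 17 alternatives, but in monocytes only under 10 of 17. Cfb (ENSMUSG00000090231, chr17:34856374-34862518, minus strand) encodes factor B, the protease of the alternative pathway convertase, and can be induced by interferon gamma. In monocytes it stood at 144 CPM in Control (135 to 155) and 260 CPM in IR (251 to 270), 1.80-fold higher, a log2 ratio of 0.85 (0.74 to 0.96). In macrophages it stood at 117 CPM (112 to 123) and 227 CPM (212 to 242), 1.93-fold higher, a log2 ratio of 0.95 (0.83 to 1.07). At 2000 UMIs per cell, 19.3% of Control and 34.3% of IR monocytes held a Cfb UMI, and 18.2% and 30.7% of macrophages (40.4% and 60.1%, and 44.1% and 58.7%, before thinning), against 0.897% and 2.12% of T or NK cells. The 3 macrophage subsets with Mmp12 or Mmp13, with Dcstamp, Ccl17 or Tnip3, and with Clec5a, Fcgr4 or Gpr84 went the same way, from 68.7 to 158 CPM, from 122 to 278 CPM and from 184 to 326 CPM. The Lyve1/Folr2 cells had 257 CPM in Control and 787 CPM in the 11 IR cells (76 UMIs). Exceptions were the cycling macrophages, at 113 CPM in Control and 39.2 CPM in IR from 8 UMIs of 10 cells, and the cells with tied marker sums, at 159 and 173 CPM with an interval of the log2 ratio that included 0. In cDC the values were 51.7 and 100 CPM, a log2 ratio of 0.95, and free RNA would give 32.4% and 11.4% of those levels by the Apoe gauge. Neutrophils had 2 UMIs in Control and 105 UMIs in IR, 15.2 and 127 CPM, a log2 ratio of 3.07 with a lower bound of 1.18. Free RNA was expected to give 47.0 and 55.3 CPM there, more than was measured in Control and 43.6% of the IR level, so the Control value is read as background. In migratory dendritic cells, at 32.9 and 43.8 CPM, the interval of the log2 ratio of 0.41 included 0. Empty droplets also held more Cfb in IR, at 79.0 and 118 CPM, but free RNA accounted for at most 2.56% of the level in either main gate. The T or NK gate likewise held more in IR, at 7.76 and 18.0 CPM, with 7.72 and 10.9 CPM expected from free RNA. The source of the rest was not tested.

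Cfp (ENSMUSG00000001128, chrX:20925454-20931555, minus strand) encodes properdin, the stabiliser of the alternative pathway convertase. It did not move with Cfb in monocytes, where it stood at 372 CPM in Control (357 to 388) and 370 CPM in IR (358 to 382), a log2 ratio of -0.01 (-0.09 to 0.07). In macrophages it was at 443 CPM (432 to 454) and 514 CPM (491 to 537), a log2 ratio of 0.21 (0.14 to 0.29). In cDC it was at 389 and 396 CPM, and the intervals overlapped. In neutrophils Cfp was at 98.5 CPM in Control (13 UMIs) and 249 CPM in IR (206 UMIs), with 149 and 97.0 CPM expected there from free RNA. The share of cells with a Cfp UMI at 2000 UMIs was 44.1% and 43.9% in monocytes and 55.5% and 60.5% in macrophages (74.3% and 79.9%, and 88.4% and 90.0%, before thinning), against 4.78% and 2.61% of T or NK cells.

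Both receptors were higher in IR in the main gates. C3ar1 (ENSMUSG00000040552, chr6:122847138-122856161, minus strand) is the receptor of C3a. It stood at 110 CPM in Control monocytes (101 to 118) and 191 CPM in IR (183 to 199), 1.74-fold higher, a log2 ratio of 0.80 (0.67 to 0.93). In macrophages it was at 238 CPM (230 to 246) and 284 CPM (268 to 302), a log2 ratio of 0.26 (0.16 to 0.36). The macrophage difference depended on the gate, and with the lineage minimum raised by a factor of 2 its log2 ratio was 0.08 (-0.04 to 0.19). At 2000 UMIs, 16.3% of Control and 26.9% of IR monocytes and 35.5% and 45.0% of macrophages held a C3ar1 UMI (42.4% and 59.4%, and 73.6% and 83.0%, before thinning), against 0.598% and 2.77% of T or NK cells. The macrophage subsets went different ways. C3ar1 was at 235 and 358 CPM in cells with Clec5a, Fcgr4 or Gpr84, at 251 and 241 CPM with an interval of the ratio that included 0 in those with Mmp12 or Mmp13, and at 147 and 77.0 CPM in those with Dcstamp, Ccl17 or Tnip3, where 15 IR cells held 18 UMIs. Mast cells or basophils had 251 and 233 CPM, from 32 Control and 61 IR cells, with overlapping intervals. Migratory dendritic cells had 2 and 5 UMIs, near the level of free RNA. The T or NK gate was also higher in IR, at 10.0 and 23.0 CPM of C3ar1. Free RNA was expected to give 9.67 and 9.36 CPM there, and the source of the rest was not tested.

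C5ar1 (ENSMUSG00000049130, chr7:16246743-16259540, minus strand), the receptor of C5a and a guide of neutrophil migration, stood at 118 CPM in Control monocytes (110 to 127) and 179 CPM in IR (171 to 188), a log2 ratio of 0.60 (0.47 to 0.73). In macrophages it was at 204 CPM (197 to 212) and 275 CPM (258 to 292), a log2 ratio of 0.43 (0.32 to 0.53), which in the bin above 80% macrophage markers was 0.17 (0.02 to 0.31). At 2000 UMIs, 16.8% and 25.6% of monocytes and 33.9% and 38.9% of macrophages held a C5ar1 UMI (42.9% and 57.4%, and 69.1% and 77.5%, before thinning), against 1.79% of T or NK cells in each library. Neutrophils had 371 CPM in Control (49 UMIs) and 751 CPM in IR (622 UMIs), a log2 ratio of 1.02 with a lower bound of 0.60, and mast cells or basophils 262 CPM (23 UMIs) and 790 CPM (176 UMIs), a log2 ratio of 1.59 with a lower bound of 0.96. Free RNA was expected to give at most 57.9 CPM in either. At 2000 UMIs, 2 of the 9 Control and 109 of the 141 IR neutrophils that were deep enough held a C5ar1 UMI (67.7% and 88.4% of all before thinning). The most in any of those 9 Control neutrophils, at 2000 UMIs, was 13 UMIs, and the interval does not cover such clumping within cells. Neutrophil markers were also higher in the IR monocyte and macrophage gates, as given above, and their part in these receptor levels was not tested. Neutrophils held 1.12% of the C5ar1 UMIs of the Control library and 13.5% of those of IR, as their share of cells went from 0.666% to 5.68%. In the fibroblast or tumor gate no C5ar1 UMI was found in either library, and 3 UMIs, taken as the limit that a count of 0 allows, would be 3.25 CPM in Control and 2.25 CPM in IR.

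Of the 43 other complement genes listed, 14 had no UMI in the monocyte and macrophage gates of both libraries. In the monocyte gate 12 had at least 20 UMIs, of which 1 was at least 2-fold higher in IR (Fcnb, a ficolin, 4 and 16 UMIs, with an interval that included 0) and 0 lower, beside the 3.46% and 3.73% of all genes. In the macrophage gate 16 did, of which 0 were 2-fold higher and 5 lower, beside 3.58% and 6.18% of all genes. Among them were C6, a subunit of the membrane attack complex (117 and 1 UMIs), Fcna, a ficolin that starts the lectin pathway (31.2 and 10.1 CPM), C1s1, a protease of the C1 complex (23 and 1 UMIs), and C2 (38 and 4 UMIs), whose interval included 0. In Control, the Lyve1/Folr2 cells held 113 of the 117 C6 UMIs and 61.5% of the Fcna UMIs of the macrophage gate, but 0 of 23 C1s1 UMIs. The median log2 ratio of the list was 0.06 in monocytes and -0.31 in macrophages.

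The integrins of complement receptor 3, which binds cleaved C3, were higher in IR. Itgam was at 350 and 446 CPM in monocytes and at 380 and 610 CPM in macrophages, and its partner Itgb2 at 380 and 459 CPM and at 319 and 569 CPM. Itgax, the chain of complement receptor 4, was instead lower in IR, at 125 and 86.2 CPM in monocytes and 135 and 120 CPM in macrophages. C1qbp, a mitochondrial protein that binds C1q, was at 84.4 and 51.0 CPM in monocytes and at 100 and 73.8 CPM in macrophages. C5ar2, the other receptor of C5a, was at 7.20 and 12.6 CPM in monocytes and at 15.2 and 15.8 CPM in macrophages. Clu (clusterin, an inhibitor of the membrane attack complex) was found almost only in migratory dendritic cells among these gates, at 111 CPM in Control and 28.3 CPM in IR.

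The genes whose pattern was most like that of each member were ranked by Pearson correlation of log2(CPM + 10) over 13 combinations of gate and library with at least 50 cells. These points share 2 libraries and their free RNA, and the coefficients are a description among 5307 genes. Nearest to the C1q sum were Trem2 (0.975) and Mrc1 (0.970), both markers of the macrophage gate, then Arg1, Cysltr1 and Daglb. Trem2, a lipid receptor, was at 420 and 414 CPM in Control and IR macrophages, where C1q was lower in IR, while Mrc1, the mannose receptor, was at 436 and 181 CPM. Among the nearest to C3ar1 were Slc7a8 (0.982), Cd93, Adgre1 (a gate marker) and Hk3, and to C5ar1 Dok3 (0.973), Dmxl2, Cyp4f18, Nlrp3 and Hk3. Nearest to Cfb were Stom (0.965), Aldh3b1, Rab5c, Creb5 and Camkk2, and to Cfp Ctsc (0.964), Fcgr2b, Clec4a2, Lyn and Ms4a6c (a gate marker). C3 ranked with Itga5 (0.928), Lrp1, Tcf7l2, Htra3 and Nt5dc2, and C4b with Prune2 (0.985), Ptgfrn, Trim47, Pmp22 and Ptgs1.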

How the data were processed

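Raw UMI counts per gene and barcode, 1 unfiltered matrix per library, were deposited by the authors, who aligned 10x Chromium 3′ reads to mm10 with Cell Ranger (6.0.1 in the notes and methods, 4 in the matrix headers). Library totals were 48593879 and 42406461 UMIs. Cells were called by an order-of-magnitude cutoff plus a test of barcodes with at least 500 UMIs against empty droplets (ranks 45001 to 90000). Cells needed 200 genes and at most 25% mitochondrial UMIs. Scrublet (scanpy 1.11.5) ranked doublets and the top 6% were left out, since its automatic threshold marked only 1 and 0 cells. The study used DoubletFinder.

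Lineage was read at 1000 UMIs per cell and monocytes were split from macrophages at 2000, with minimums set after the marker UMIs were seen. Cells with several lineages, ties or too few UMIs stayed outside. Counts were summed per gate, with exact Poisson, binomial and conditional intervals. The members, lists and gates were chosen with earlier results of these data known. Named were all members, other complement genes at 100 CPM in a myeloid gate or with a log2 ratio of 1 whose interval excluded 0, and the 5 most alike genes, except 2 genes that are counted but not reported here. Some others were named after their values were seen (C2, C4a, C5ar2, Fcnb, and CD11b as a check). The fold rule was tested on simulated sums of 32285 genes. It recovered 200 of 200 changed genes in the monocyte gate and 198 of 200 in the macrophage gate. It also called 119 and 202 unchanged genes. These counts give no recovery rate for genes near the 2-fold limit or with few UMIs, which was not tested separately. Promoters of C1qa, Cfb and C4b were not used here. Alternatives concerned cell calling, gating, scaling (TMM, edgeR 4.0.16) and free RNA.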

Additional observations from a re-analysis of the deposited data

Results flagged for a closer look

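C3 did not move in one direction over the myeloid gates. Its log2 ratio, IR over Control, was -0.19 in monocytes, -0.40 in macrophages and -2.29 in cDC, but 1.02 in neutrophils and 1.09 in migratory dendritic cells, each with an interval that excluded 0. The difference between gates was not tested, and the cDC, neutrophil and migratory dendritic cell values rest on 13, 15 and 12 UMIs in the library with fewer. In Control neutrophils free RNA was expected to give 42.7% of the C3 level, and in IR cDC 32.6%.

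C1q was also found in cells that entered no comparison. Cells without enough markers of a lineage had the C1q chains at 2077 CPM in Control and 554 CPM in IR. Cells with markers of several lineages had 3602 and 947 CPM, and cells too shallow to be gated had 2364 and 1727 CPM. Beside these stand the T or NK gate at 447 and 132 CPM, the neutrophil gate at 2189 and 760 CPM, whose C1q is read as background, and empty droplets at 4124 and 1663 CPM. Monocytes or macrophages too shallow to be split, 176 in Control and 78 in IR, were above all 3 backgrounds of their library. They had 4507 CPM in Control (4251 to 4775) and 2082 CPM in IR (1831 to 2357). Of the other ungated values, the IR shallow cells alone were above all 3, but their interval (1483 to 1999) held the empty-droplet level. The part of free RNA in all these cells was not tested.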

How the results depend on the processing

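No paired analysis was possible because each group was a single library, which also means that no replicate could be left out. Of 238 values of the 14 log2 ratios under alternatives, 187 stayed within the counting interval of the main value. Another 50 left it without a called direction turning, and 1 with a called direction changed sign. That value was C4b in macrophages without Lyve1/Folr2 cells, at 0.24 with an interval that included 0, as given in the report. Cfp in monocytes, near 0 throughout, took either sign. Alternatives that change the cell set also redraw the thinning, and redrawing alone gave -0.87 for C1q in monocytes and -0.78 in macrophages.

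Other values that left the interval are grouped by setting. With barcodes of at least 1000 UMIs, Cfb in monocytes was 0.72, C1q in macrophages -0.66 and C3ar1 in macrophages 0.38. With at most 10% mitochondrial UMIs, C1q in monocytes was -0.83, and in macrophages C3ar1 was 0.36, C5ar1 0.53 and Cfp 0.32. Without doublet removal, C1q was -0.92 and -0.73, C3 in monocytes -0.29, C5ar1 in monocytes 0.79 and Cfp in macrophages 0.30, and the macrophage gate held 67.6% and 39.7% of the C1q UMIs. With doublets removed it held 68.7% and 44.4% of the C1q UMIs, or 69.1% and 47.0% of those of C1qa alone. Gating at 1000 UMIs gave C1q -0.88 and -0.84. Gating without thinning gave C1q -0.72 and -0.62, C5ar1 in monocytes 0.83, and C3 and Cfp in macrophages -0.59 and 0.29. With Apoe and Lgmn added, C1q was -0.46 and -0.71, C5ar1 in monocytes 0.82 and C3ar1 in macrophages 0.38. Without Ly6c2 and Ms4a4c, C1q was -1.26 and -0.83 and Cfp in monocytes -0.11. With lineage minimums raised, Cfp in monocytes was 0.14, and in macrophages C1q was -0.78, C3ar1 0.08, C5ar1 0.30, Cfb 0.80, Cfp 0.11 and C4b -1.36. Without mitochondrial and ribosomal protein genes in the total, C1q was -1.08 and -0.77 and Cfp in macrophages 0.12, and with TMM they were -0.96, -0.61 and 0.29. Among comparisons chosen after seeing the data, C1q in monocytes was -0.78 without cells near the gate boundary and -0.87 without cycling cells. At the ends of the marker range, C1q was -0.86 and -0.66, C3ar1, C5ar1, Cfb and C4b in monocytes 0.95, 0.75, 0.72 and -0.21, and C5ar1 in macrophages 0.17. Subtracting free RNA kept each of the 14 ratios within its interval.

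The counts of genes past the fold moved as the filter or limit did. With no filter on low counts, 2464 genes were higher and 1625 lower in monocytes and 1805 and 3001 in macrophages, and with 1.5-fold 940, 1099, 923 and 1597. Of the other complement genes, 8 and 2 in monocytes and 5 and 9 in macrophages passed with no filter, and 2 and 3 in monocytes and 2 higher in macrophages with 1.5-fold. With log2(CPM + 1), 2 to 5 of the 5 most alike genes were shared. Depth limits C4b, C6 and the neutrophil, cDC and mast cell gates, where counts are small.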

Other observations

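Nonclassical monocytes, gated by Ace, Adgre4, Treml4, Spn, Eno3 and Ear2, were few, with 54 cells in Control and 32 in IR. They had the C1q chains at 3092 CPM in Control (2903 to 3289) and 402 CPM in IR (325 to 493), and Cfp at 414 and 134 CPM. Empty droplets held C1q at 4124 and 1663 CPM. Gauged with lymphocyte genes, of which these few cells hold few UMIs, free RNA would give 39.1 CPM of C1q in Control and 15.7 CPM in IR. C4b had 21 UMIs (64.9 CPM) in Control and 0 in IR, where 3 UMIs, the limit taken for a count of 0, would be 13.0 CPM. Cfb was at 95.8 and 99.5 CPM, and C5ar1 at 71.1 and 73.5 CPM, with overlapping intervals.

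The fibroblast or tumor gate, with 60 and 49 cells and Ptprc (CD45) at only 6.5 and 5.25 CPM, held C3 at 276 CPM in Control (255 UMIs) and 11.3 CPM in IR (15 UMIs), while Cfb was at 43.3 and 75 CPM. Collagen Col1a1 was at 178 and 46.5 CPM there, Dcn at 1244 and 1220 CPM, and Epcam at 0 in both. Control cells too shallow for the lineage gates had C1qa over C1qb at 1.52, against 0.92 over all Control cells and 0.94 in empty droplets.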
